A study of Cynoglossus semilaevis with 24 samples.

Results

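The ovary of Chinese tongue sole (Cynoglossus semilaevis) was set against the brain, pituitary and liver of females of the same species, to find the genes whose level was highest in the female gonad. The comparison took all 12 female libraries among the 24 of the series: 3 of gonad, 3 of brain, 3 of pituitary and 3 of liver. They were chosen by the labelled organ and genetic sex, and a gene was counted as ovary-enriched only if it was called higher in gonad than in each of the 3 other organs. The series as a whole measured gene expression by RNA sequencing in these 4 organs of 15 female and 15 male fish to study the difference in growth between the sexes. Each library was made from total RNA of a pool of 5 organs from fish aged 2 years. The female gonad pools are called ovary here. No treatment, transgene or mutation was labelled in any group. With 15 females in all and 3 pools of 5 per organ, the 4 organs shared fish. The labels do not say which pools did, and the test had no term for it. Nor do the labels give the reproductive stage of the ovaries. The p-values measure the spread between pools, not between single fish. In bulk libraries, more cells of a type and more RNA per cell cannot be told apart.

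A fish ovary holds follicles at many stages, each an oocyte wrapped in granulosa and theca cells. The oocyte builds its egg envelope from zona pellucida (ZP) glycoproteins, takes up yolk precursors that the liver secretes, and stores mRNAs, histones and mitochondria that the embryo uses before its own genome is transcribed. The surrounding follicle cells answer to the gonadotropins of the pituitary and make sex steroids, and with blood vessels and stroma they form the rest of the organ.

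Estimated counts summed to between 10032337 and 15202981 per female library, apart from ovary pool 1 with 25293744. Markers of each organ were highest in its own libraries. The summed level of 31 neuron and glia markers was 47.8 to 55.6 FPKM (fragments scaled by transcript length and by the number of mapped fragments) in ovary and 8245 to 9084 FPKM in brain. For 14 pituitary hormone markers it was 108 to 125 FPKM in ovary and 162796 to 174461 FPKM in pituitary, and the egg envelope genes summed to between 21214 and 26039.5 FPKM in ovary. Ovary pools correlated with each other at 0.98 to 0.99 (Pearson, log2 FPKM, across genes) and the median coefficient of variation of an ovary-enriched gene over the 3 ovary pools was 12.4%.

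Libraries stood apart in 3 places. Ovary pool 2 carried transcripts of liver: 30 hepatocyte markers summed to 3617 FPKM there, against 118 and 152 FPKM in ovary pools 1 and 3. The same markers summed to 3593, 3830 and 4140 FPKM in the brain pools and to 187, 150.3 and 506 FPKM in pituitary pools 1, 2 and 3. Ovary pool 2 exceeded both other ovary pools more than 2-fold in 237 genes, of which 154 were over 10 times higher in liver than in ovary. Pituitary pool 3 and liver pool 1 carried transcripts of ovary. The 24 egg envelope genes summed to 126.5 FPKM in pituitary pool 3, against 59.5 and 45.1 FPKM in pituitary pools 1 and 2, and to 51.2 FPKM in liver pool 1, against 16.98 and 20.1 FPKM in liver pools 2 and 3. Over 103 genes at 300 FPKM or more in ovary and at least 64-fold above each organ, the median level was 0.510% of the ovary mean in pituitary pool 3 and 0.0908% and 0.0999% in the other pituitary pools. In liver pool 1 it was 0.198%, and in the other liver pools 0.0669% and 0.0731%. Where leaving out one of these pools moved a fold printed below by over 1.5 times, the fold without it is also given. Whether the transcripts came from tissue, from mixed RNA or from the sequencing run was not tested.

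**Figure D1:**
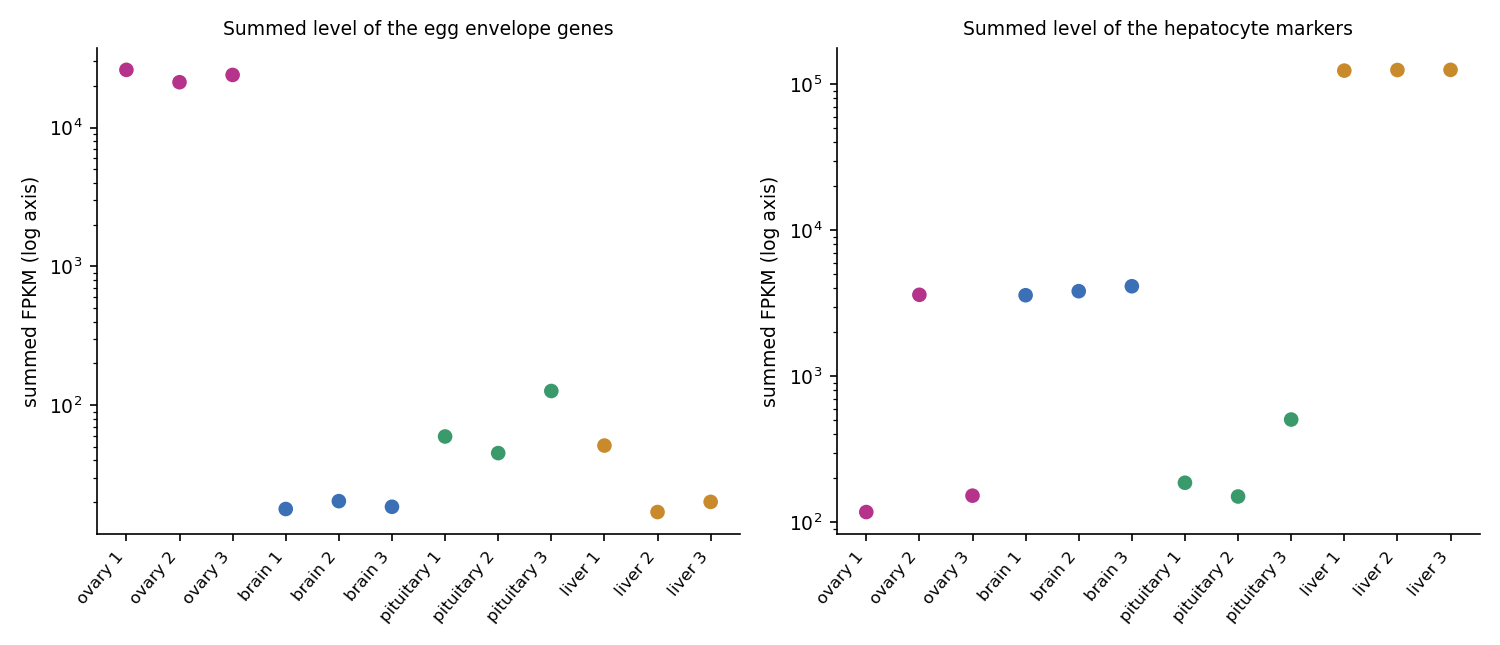
Summed FPKM (log axes) of the 24 egg envelope genes (left) and of the 30 hepatocyte markers (right) in each of the 12 female pools, with ovary first. The ovary pools hold 21214 to 26039.5 FPKM of egg envelope transcripts, pituitary pool 3 and liver pool 1 lie above the other pools of their organs, and ovary pool 2 lies at 3617 FPKM of hepatocyte transcripts, above ovary pools 1 and 3.

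Of 18187 genes tested, 5921 (32.6%) were ovary-enriched and 4591 (25.2%) were lower in ovary than in each of the 3 organs (edgeR quasi-likelihood test on counts, Benjamini-Hochberg adjusted p under 0.05 in all 3 contrasts). At least 4-fold above each organ were 3324 genes (18.3%), at least 16-fold 1278 and at least 64-fold 530. Setting genes with no count in a whole organ at their bound of 3 counts gave 3322, 1204 and 423 genes. The smallest of the 3 log2 differences had a median of 2.26 over the enriched genes and of -1.20 over all genes tested. Organ by organ, ovary was higher in 7830 genes (43.1%) and lower in 8242 (45.3%) than brain (88.4% in either direction), higher in 7690 (42.3%) and lower in 7809 (42.9%) than pituitary (85.2% in either direction), and higher in 7938 (43.6%) and lower in 6778 (37.3%) than liver (80.9% in either direction). The 3 contrasts share the ovary libraries.

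The split between higher and lower genes depended on how libraries were scaled. With TMM scaling, which levels libraries on genes presumed alike, the median log2 difference over all genes was -0.11 against brain, -0.02 against pituitary and 0.22 against liver. Scaled by count total alone, the medians were -1.05, -0.69 and 1.43. Ovary was then higher in 5958 genes and lower in 10081 against brain, higher in 6167 and lower in 9329 against pituitary, and higher in 10488 and lower in 4407 against liver. The enriched count moved little, to 5047 genes, of which 4842 were also enriched with TMM scaling. Each fold below was estimated from TMM-scaled counts and therefore differs from the quotient of the FPKM averages shown with it, most of all against liver.

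Pool by pool, every ovary pool lay above all 9 other pools in FPKM in 5181 genes (28.5%), and in 4955 of the 5921 enriched genes. Every ovary pool lay below all 9 others in 3387 genes (18.6%), and in 3120 of the genes called lower. The same holds for each gene named below as higher or lower, except where overlap is stated. The organ nearest to ovary was brain for 1435 enriched genes, pituitary for 2232 and liver for 2254. A further 487 genes were called higher than in pituitary and liver but not brain, 397 higher than in brain and liver but not pituitary, and 934 higher than in brain and pituitary but not liver. Without ovary pool 2 there were 5839 enriched genes, 5791 of them shared, and without pituitary pool 3 and liver pool 1 together 5807, with 5765 shared.

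Of the 5921 enriched genes, 978 reached 1 FPKM in 3 libraries only through ovary, out of 1031 such genes tested. For them the filter on low values favoured a higher level in ovary. In 709 enriched genes all 9 other pools were under 1 FPKM, and in 70 all 9 were at 0. Of 1020 unannotated loci tested, 338 were enriched, a share near the 32.6% of all genes tested. The genes called enriched were chosen on these libraries, so their share of all FPKM is a description: it was 75.4 to 76.9% in ovary pools, 19.6 to 19.8% in brain, 14.6 to 15.4% in pituitary and 3.80 to 4.69% in liver. Genes at least 4-fold above each organ took 57.6 to 59.6% of ovary FPKM. Among the 1190 tested genes at 100 FPKM or more in ovary, 1011 were enriched, beside 32.6% of all genes tested. A high ovary level chose these genes and also enters the rule, so that count is a description.

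**Figure D2:**
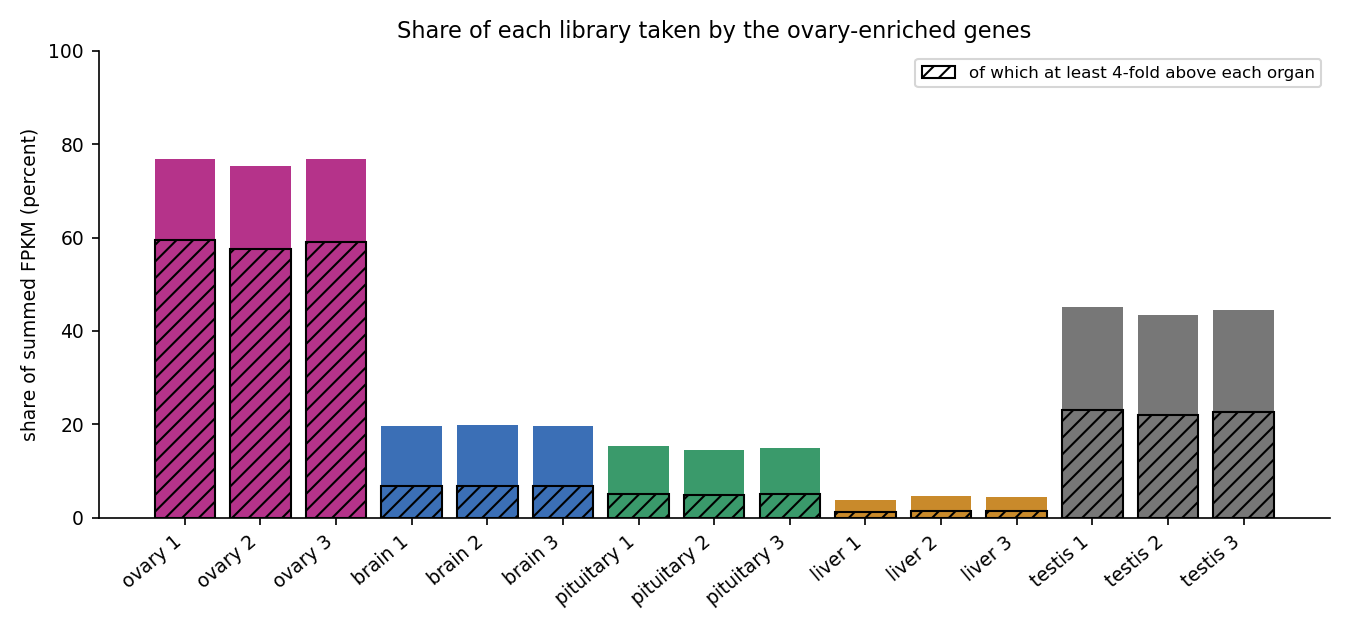
Share of summed FPKM (percent, axis from 0) taken by the 5921 ovary-enriched genes in each female pool and in the 3 testis pools, which did not enter the choice of genes; the hatched part is the share of genes at least 4-fold above each organ. Ovary pools stand at 75.4 to 76.9%, testis pools at 43.4 to 45.1% and liver pools lowest, at 3.80 to 4.69%.

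Regulators known from oocytes came first among the lists by share of enriched members. All 15 tested members of the list of oocyte growth factors and regulators were ovary-enriched, beside 32.6% of all genes tested. Each was at least 4-fold above every organ, beside 18.3% of all genes. Their median smallest log2 difference was 8.17. The remaining member, lhx8, was not tested, and 8 of the 15 passed the filter only through ovary. For members that passed in this way the filter favoured a higher level in ovary, so here and in the lists below the counts and medians are a description. gdf9, a growth factor by which the oocyte acts on the follicle cells around it, had 147, 170.5 and 156 FPKM in ovary pools 1, 2 and 3, against 0.13, 0.04 and 0.16 in brain, 0.08, 0.16 and 0.74 in pituitary and 0.43, 0.12 and 0.14 in liver. No pool outside the ovary reached 1 FPKM. The fitted gdf9 level was 2569-fold above brain, 783-fold above pituitary and 288-fold above liver, a log2 difference from liver of 8.17 ± 0.47 (SE). gdf9 passed the filter only through ovary, so no p-value is given. It was 2064-fold above pituitary without pituitary pool 3 and 518-fold above liver without liver pool 1.

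Its relative bmp15 had 356, 293 and 288 FPKM in the ovary pools, against 0.31, 0.98 and 1.08 in brain, 1.46, 2.75 and 3.31 in pituitary and 0.57, 0.13 and 0.08 in liver. The ovary pools lay close together and far above the rest, with pituitary the nearest organ at 199-fold (log2 7.64 ± 0.46, edgeR adjusted p = 2.08e-08). zar1, an RNA-binding protein of the oocyte named for the arrest of zygotes that lack it in mouse, stood at 833, 893 and 877 FPKM in ovary, against 1.4, 1.95 and 2.06 in brain, 1.28, 1.03 and 7.33 in pituitary and 1.53, 0.49 and 1.64 in liver. It was 913-fold above brain, 434-fold above pituitary and 300.3-fold above liver, or 1177-fold above pituitary without pituitary pool 3. Its paralog zar1l averaged 851 ± 11.3 FPKM in ovary and at most 1.75 FPKM in any other organ.

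Transcription factors of the oocyte differed in level. figla, the basic helix-loop-helix factor that activates ZP genes in mouse and lies on the W chromosome here, had 2.66, 4.28 and 5.6 FPKM in ovary and was at 0 in all brain pools, at 0, 0.1 and 0.22 in pituitary and at 0, 0 and 0.08 in liver. Its level was at least 67.4-fold above brain. nobox, a homeobox factor needed for follicle growth in mouse, had 11.3, 11.6 and 12.9 FPKM in ovary, against 0.11, 0.15 and 0.2 in brain, 0, 0.02 and 0.08 in pituitary and 0, 0 and 0.03 in liver. tbpl2, which takes the place of the general TATA-binding protein in growing oocytes of mouse, had 266, 192 and 219 FPKM in ovary and no more than 0.32 FPKM in any other pool. It was 2897-fold above brain, 1484-fold above pituitary and 685-fold above liver, or 4487-fold above brain without brain pool 2.

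Products stored in the egg reached the highest levels of the group. The gene with the symbol org, annotated as nucleolin-like, averaged 3218 ± 548 FPKM in ovary, and h1m, the linker histone that packs DNA in the fish oocyte, 1529 ± 87.3 FPKM (SD, n = 3 pools). btg4, which recruits a deadenylase to stored mRNAs in mouse oocytes, had 984, 647 and 571 FPKM in ovary and at most 2.8 FPKM elsewhere. mos, the kinase that holds the mature egg at metaphase, had 230.4, 185 and 160.1 FPKM in ovary, against 7.73, 6.12 and 8.01 in brain, 10.3, 8.59 and 8.3 in pituitary and 0.98, 0.4 and 0.95 in liver. mos was measurable in all other pools, and its smallest fold was 33.8, against pituitary. Leaving out liver pool 1 raised the smallest log2 difference of org, 8.64, to 9.56 and that of btg4, 8.77, to 9.71.

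**Figure D3:**
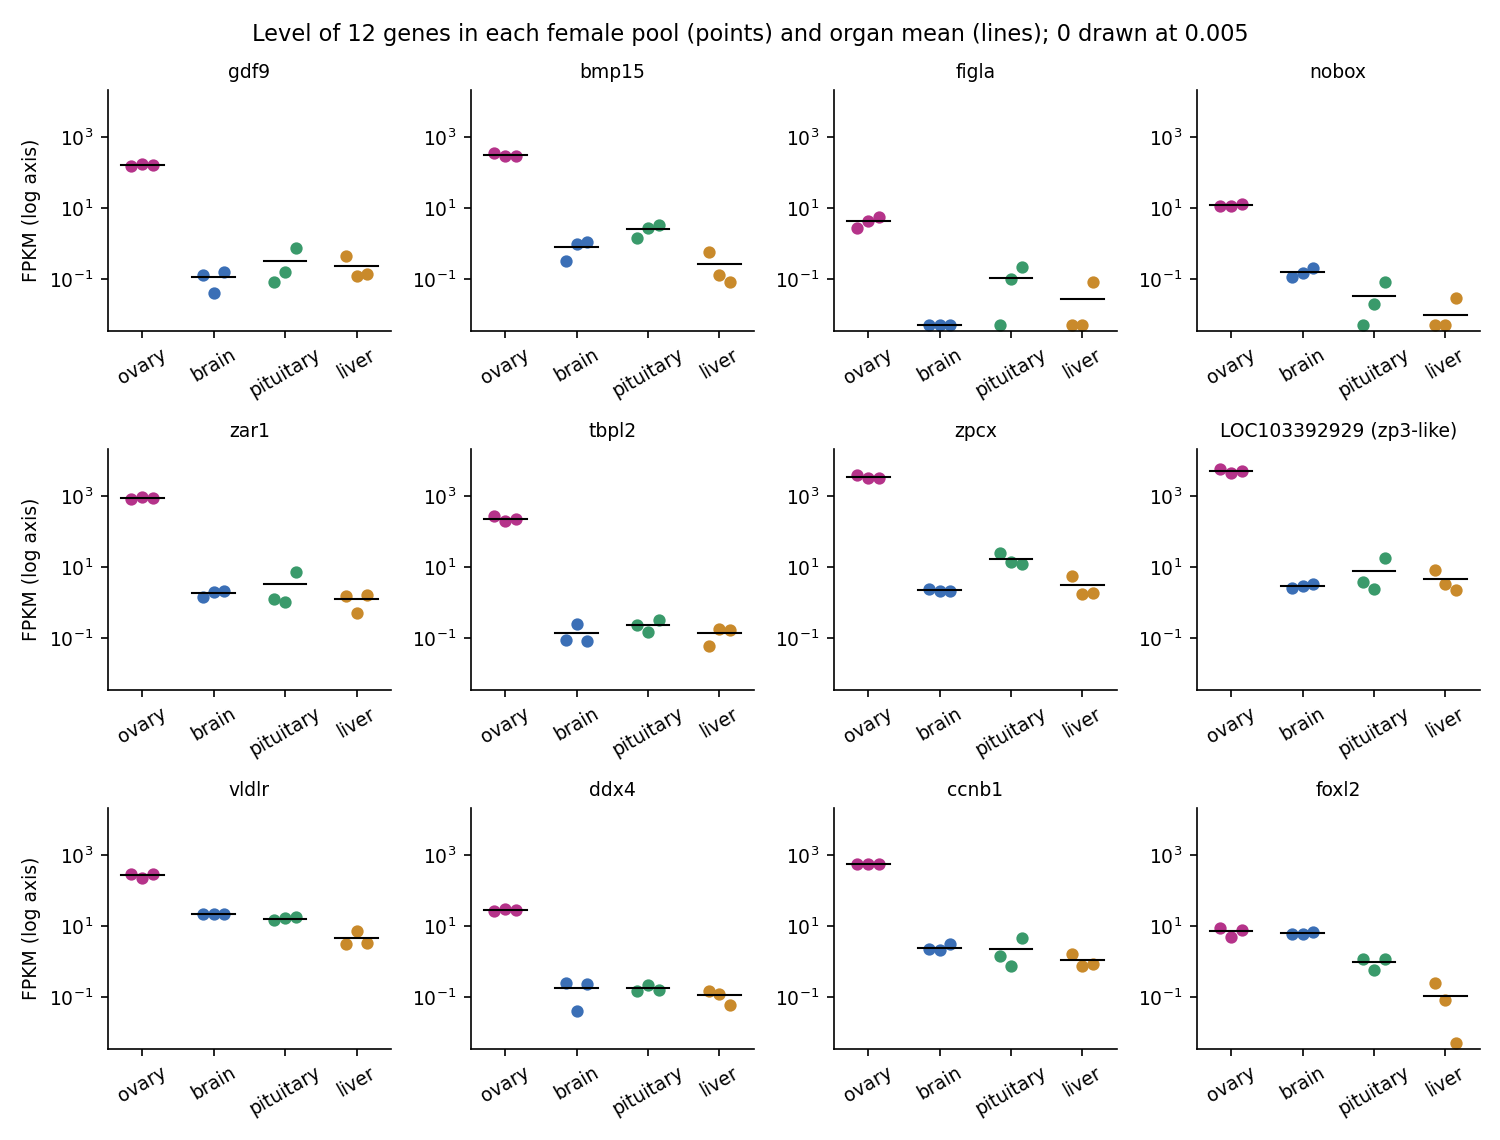
FPKM (log axes, 0 drawn at 0.005) of 12 genes in each pool of ovary, brain, pituitary and liver; points are pools and lines are organ means. In 11 of the 12 panels the 3 ovary points lie above all others, while the ovary and brain points of foxl2 overlap.

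Among the 4 female organs, genes of the egg envelope were the second group almost wholly restricted to ovary, with 1 exception given below. Of 24 ZP genes, 23 were tested and 22 were ovary-enriched, all of them at least 4-fold. The shares of all genes tested were 32.6% enriched and 18.3% at least 4-fold. The median smallest log2 difference of the 23 was 8.30, or 8.71 without pituitary pool 3 and liver pool 1. Of the 23, 11 passed the filter only through ovary. LOC103392929, annotated as ZP sperm-binding protein 3-like, had 5556, 4467 and 5033 FPKM in ovary, against 2.52, 2.92 and 3.32 in brain, 3.76, 2.36 and 17.5 in pituitary and 8.03, 3.21 and 2.24 in liver. The ovary pools were far above the other 9, of which pituitary pool 3 and liver pool 1 were the highest. Its fold was 3276 against brain, 1026 against pituitary and 462 against liver, or 2602 against pituitary without pituitary pool 3 and 821 against liver without liver pool 1.

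zpcx, another ZP3-type gene, had 3773, 3116 and 3138 FPKM in ovary, against 2.39, 2.14 and 2.05 in brain, 24.9, 14 and 11.9 in pituitary and 5.66, 1.78 and 1.81 in liver. In contrast to LOC103392929, it was above 10 FPKM in all 3 pituitary pools, and highest in pituitary pool 1. zpcx was 2911-fold above brain, 314-fold above pituitary and 447-fold above liver (edgeR adjusted p = 5.49e-09), or 829-fold above liver without liver pool 1. LOC103377641, also ZP3-like, showed the same order, with 1337, 803 and 877 FPKM in ovary, 0.4, 0.62 and 0.49 in brain, 14.9, 11.3 and 9.99 in pituitary and 1.41, 0.28 and 0.18 in liver.

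The other ZP genes ranged widely in level within the ovary. LOC103396071, ZP4-like, averaged 4173 ± 631 FPKM and zp3f.2 1808 ± 248 FPKM, while LOC103391061, ZP3-like, averaged 4.79 ± 1.67 FPKM in ovary. LOC103377654, ZP4-like, was the one with the smallest fold among the enriched ZP genes named here, 9.79 against liver, where liver pool 3 alone exceeded 1 FPKM, or 18.9 without that pool. The exception to the pattern was LOC103380130, ZP3-like, which had 0, 0.16 and 0.05 FPKM in ovary, against 6.68, 1.47 and 4.15 FPKM in liver, a level 164-fold lower in ovary than in liver (edgeR adjusted p = 1.52e-06). That fold was 105 without liver pool 1, 105 without ovary pool 1 and 422 without ovary pool 2. The counting method for near-identical copies is not given in the sources used here, so reads may be split between ZP paralogs.

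Yolk handling did not move as one group. Of 34 genes for yolk uptake and processing, 29 were tested, 8 were ovary-enriched and 9 were lower in ovary than in each organ, or 27.6% and 31.0%, beside 32.6% and 25.2% of all genes tested. The receptors went both ways. vldlr, the receptor by which fish and chicken oocytes take up vitellogenin, had 286, 228 and 284 FPKM in ovary, against 22.2, 21.7 and 22 in brain, 14.5, 16.5 and 17.2 in pituitary and 3.14, 7.28 and 3.28 in liver. All 3 other organs expressed it at a lower level, and the folds were 22.6, 25.1 and 23.9 against brain, pituitary and liver (edgeR adjusted p = 1.04e-09).

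A pair of related receptors was far more restricted. LOC103397210, annotated as low-density lipoprotein receptor-related protein 1B-like and W-linked, had 427, 425 and 403 FPKM in ovary, against 0.31, 0.88 and 1.37 in brain, 0.38, 0.61 and 1.23 in pituitary and 0.44, 0.53 and 0.58 in liver. lrp13, Z-linked and known as an ovarian lipoprotein receptor in other fish, had 401, 398 and 432 FPKM in ovary and at most 1.46 FPKM in any other pool. Their smallest folds, both against liver, were 345 for LOC103397210 and 296 for lrp13, or 552 for lrp13 without liver pool 1. On the lower side, the 2 genes named lrp8 averaged 0.14 ± 0.0781 and 0.86 ± 0.209 FPKM in ovary, against 4.17 ± 0.274 and 7.6 ± 0.246 FPKM in brain. The second overlapped with liver pools.

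Proteases that cut yolk proteins differed gene by gene. LOC103394264, cathepsin S-like, had 6968, 4806 and 6172 FPKM in ovary, against 3.99, 3.96 and 4.69 in brain, 2.87, 3.31 and 25.2 in pituitary and 10.8, 3.04 and 2.92 in liver. LOC103390711, cathepsin Z-like, averaged 1734 ± 273 FPKM in ovary and under 10 FPKM in each other pool. Their copies ctss2.1 (cathepsin S-like) and LOC103396679 (cathepsin Z-like) were called lower in ovary than in each organ, at 15.4 ± 2.24 and 2.82 ± 0.261 FPKM in ovary. The endocytic machinery was also on the lower side: the clathrin heavy chain cltc had 18, 18.8 and 19.4 FPKM in ovary, against 73.9, 75.8 and 80.8 in brain, 95.3, 111 and 114 in pituitary and 22.3, 27.2 and 30.9 in liver, and 2 genes for the endosomal GTPase Rab5A were 6.94-fold (LOC103388351) and 13.2-fold (LOC103394455) lower in ovary than in liver, or 21.6-fold for LOC103394455 without ovary pool 1. For rab7a the direction against liver turned when libraries were scaled by count total, and its ovary and liver pools overlapped in FPKM. Vitellogenins, the yolk precursors, were near 0: LOC103392297, vitellogenin-2-like, averaged 0.517 ± 0.583 FPKM in ovary and 0.257 ± 0.229 FPKM in liver.

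Germ plasm and piRNA genes, which mark germ cells and silence transposons in them, were enriched in 17 of 19 cases and lower in none. Among all genes tested the shares were 32.6% and 25.2%. The 19 genes had a median smallest log2 difference of 4.73. Of the 19, 13 passed the filter only through ovary. ddx4, the germ cell helicase also called vasa, had 26.2, 30 and 27.6 FPKM in ovary, against 0.25, 0.04 and 0.23 in brain, 0.15, 0.22 and 0.16 in pituitary and 0.15, 0.12 and 0.06 in liver, and was 298-fold above brain, 246-fold above pituitary and 111-fold above liver. dazl, a translational regulator of germ cells, had 17.3, 31.1 and 20.4 FPKM in ovary, with pool 2 the highest, and at most 1.12 FPKM in any other pool. dnd1, which guards germ cell mRNAs, had 147, 112 and 113 FPKM, and LOC103383947, nanos homolog 1-like, 129.6, 132 and 115 FPKM in ovary. Both stayed under 1 FPKM in all 9 other pools. The 2 members without a call against all organs were the other nanos genes, nanos1 at 1.04 FPKM and LOC103382419 at 0.337 FPKM in ovary, against 65.5 and 22.4 FPKM in pituitary.

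Meiotic genes were detected in part. Of 23 listed, 10 did not pass the filter on low values, among them sycp1, rec8 and hormad1. Of the 13 tested, 11 were ovary-enriched, beside 32.6% of all genes tested, and 9 of the 13 passed only through ovary. Without the filter 13 of 23 were enriched, beside 6461 of all 22279 genes. sycp2l, an oocyte relative of the synaptonemal complex protein 2, had 105, 118 and 106 FPKM in ovary, against 0.75, 1.6 and 0.73 in brain, 1.67, 1.48 and 1.64 in pituitary and 0.29, 0.09 and 0.19 in liver. meiob, a single-strand DNA binding factor of recombination, had 39.2, 49.3 and 44.2 FPKM in ovary and no more than 0.13 FPKM elsewhere. The cohesin subunit rad21l1 averaged 6.54 ± 1.42 FPKM and the central element protein syce3 9.97 ± 3.38 FPKM in ovary, against at most 0.21 FPKM in any other pool. sycp3, which forms the axes of meiotic chromosomes, was not enriched: it had 0.23, 0.48 and 0.5 FPKM in ovary, against 1.35, 1.18 and 1.78 in brain.

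Cell division genes, many of which also drive the meiotic maturation of the oocyte, were enriched in 30 of 31 cases and lower in none. Over all genes tested the shares were 32.6% and 25.2%. The 31 listed genes had a median smallest log2 difference of 6.50, and 7 of them passed the filter only through ovary. ccnb1, a cyclin that drives meiotic maturation, had 564, 540.2 and 548 FPKM in ovary. Its level was 2.18, 2.03 and 3.08 in brain, 1.38, 0.76 and 4.69 in pituitary and 1.58, 0.74 and 0.87 in liver. In ovary ccnb1 was 432-fold above brain, 389-fold above pituitary and 219-fold above liver (edgeR adjusted p = 8.45e-07), or 810.2-fold above pituitary without pituitary pool 3. ccnb2 averaged 1334 ± 149 FPKM, its partner cks2 509 ± 6.33 FPKM and the mitotic kinase plk1 278 ± 5.43 FPKM in ovary, with at most 6.09, 4.47 and 2.5 FPKM in any other pool.

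Replication and chromosome genes showed how unequal the group was. pcna, the sliding clamp of replication, averaged 1528 ± 73 FPKM in ovary, while top2a, which untangles dividing chromosomes, averaged 3.46 ± 0.28 FPKM. The smallest log2 difference was 6.37 for pcna and 1.52 for top2a (edgeR adjusted p = 3.89e-05), and top2a lost its call with scaling by count total. The member without a call against all organs was XLOC_020838, a mitotic checkpoint gene at 1.63 FPKM in ovary.

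Genes that write, read and remove DNA methylation and pack chromatin went both ways. Of 24 tested, 12 were ovary-enriched and 7 (29.2%) were lower in ovary than in each organ, beside 32.6% and 25.2% of all genes tested. dnmt1, which copies methylation after replication, averaged 87.5 ± 6.17 FPKM in ovary, against 17.1 ± 1.11 in brain, 10.3 ± 0.244 in pituitary and 2.26 ± 0.103 in liver, and its cofactor uhrf1 averaged 47.6 ± 7.53 FPKM in ovary and at most 2.79 FPKM in an organ. The remodeller hells had 48.1, 61.9 and 56.5 FPKM in ovary, against 1.84, 1.75 and 1.78 in brain, 1.73, 2.06 and 1.79 in pituitary and 0.18, 0.13 and 0.27 in liver. LOC103385436, DNA methyltransferase 3B-like, had 67, 48.7 and 57.1 FPKM in ovary and at most 0.32 FPKM in any other pool.

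Lower members included the TET dioxygenases, which oxidise methylated cytosine, and dnmt3a, which adds methylation anew. tet1 had 0.27, 0.2 and 0.34 FPKM in ovary, against 10.3, 10.2 and 12.2 in brain, 5.72, 7.47 and 7.01 in pituitary and 2.15, 1.86 and 2.41 in liver, and was 20.3-fold lower than brain, 15.6-fold lower than pituitary and 19.2-fold lower than liver (edgeR adjusted p = 3.7e-11). tet2 averaged 0.11 ± 0.04 FPKM and the Z-linked tet3 0.0333 ± 0.0153 FPKM in ovary, against 2.63 ± 0.396 and 0.65 ± 0.052 FPKM in liver, the lowest of the other organs. dnmt3a had 0.44, 0.23 and 0.32 FPKM in ovary, against 8.93, 7.83 and 8.73 in brain, 9.71, 10.1 and 11.3 in pituitary and 1.01, 0.6 and 0.76 in liver. For all of these the ovary pools lay below every other pool. Among histones and their chaperones, LOC103385172, histone H2A.Z-like, averaged 1546 ± 269 FPKM in ovary and the histone chaperone nasp 109 ± 9.69 FPKM, against 67.7 ± 4.02 and 2.49 ± 0.864 FPKM in brain. The 2 nucleophosmin genes went opposite ways, npm1a at 264 ± 34.5 FPKM in ovary and at most 36.9 FPKM in an organ, and npm1 at 2.22 ± 0.295 FPKM in ovary and at least 5.87 FPKM in an organ.

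RNA control genes also went both ways. Of 23 tested, 12 (52.2%) were ovary-enriched and 6 (26.1%) were lower, beside 32.6% and 25.2% of all genes tested. When scaled by count total, 9 were enriched and 4 lower, beside 5047 and 3557 of all 18187. The median smallest log2 difference of the list was 0.58, and it turned to -0.08 with that scaling. pabpc1l, the embryonic poly(A)-binding protein, had 235, 184 and 246 FPKM in ovary, against 0.19, 0.22 and 0.35 in brain, 0.25, 0.42 and 0.89 in pituitary and 0.24, 0.17 and 0.13 in liver. In contrast LOC103394269, annotated as the general polyadenylate-binding protein 1-like, had 284, 252 and 244 FPKM in ovary, against 1089.6, 1070.2 and 1061 in brain, 1243, 1107 and 1106 in pituitary and 946, 933 and 1086 in liver. At its nearest organ, pabpc1l was 534-fold higher and LOC103394269 2.15-fold lower in ovary.

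lsm14b, a component of the particles that store maternal mRNA, had 554, 438 and 443 FPKM in ovary and at most 3.25 FPKM elsewhere. pabpn1l averaged 846 ± 78 FPKM in ovary, against 7.39 ± 1.26 FPKM in brain. The translational repressor ddx6 was called lower in ovary than in each organ, at 5.9 ± 1.05 FPKM in ovary and 6.74 ± 0.572 FPKM in liver. Its ovary and liver pools overlapped in FPKM, and the call was lost with scaling by count total.

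Nuclear genes of the mitochondrial respiratory chain were higher in ovary in most cases. Of 91 tested, 74 were enriched and 3 lower, beside 32.6% and 25.2% of all genes tested. With scaling by count total 66 were enriched and 7 lower, beside 5047 and 3557 of all 18187. Without ovary pool 1 or ovary pool 2, 5 of the 91 were lower, beside 4893 and 4550 of all 18187. No member depended on ovary to pass the filter. Their median smallest log2 difference was 1.73. uqcrc1, a core subunit of complex III, had 755, 645 and 721 FPKM in ovary, against 127, 109.8 and 114 in brain, 66.8, 52.3 and 64.2 in pituitary and 17.9, 24.6 and 24.2 in liver. The folds of uqcrc1 were 11.6, 18.5 and 13.7 against brain, pituitary and liver (edgeR adjusted p = 2.4e-11). LOC103397654, the Z-linked ATP synthase alpha subunit, averaged 611 ± 57.3 FPKM in ovary, against 102 ± 3.65 in brain, 48.1 ± 4.24 in pituitary and 16.2 ± 3.13 in liver. The 3 lower members were alternative forms of cytochrome c oxidase subunits: cox4i2, an isoform linked to low oxygen in mammals, averaged 4.32 ± 1.24 FPKM in ovary and 63.5 ± 3.09 FPKM in liver, cox7a1, a heart and muscle form in mammals, averaged 1.07 ± 0.685 FPKM in ovary and 20.7 ± 1.11 FPKM in liver, and XLOC_019308, subunit 8B, averaged 0.703 ± 0.52 FPKM in ovary and 31.4 ± 7.66 FPKM in liver.

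Cytosolic ribosomal protein genes were not set apart from all 3 organs together. Of 81 tested, 14 (17.3%) were enriched and 1 (1.23%) was lower, beside 32.6% and 25.2% of all genes tested. Without ovary pool 1, 8 were enriched, beside 5460 of all 18187 genes tested. With scaling by count total 29 were enriched and 5 lower, beside 5047 and 3557 of all 18187. Against brain 75 were higher and 1 lower, against pituitary 55 and 5, and against liver 15 and 43, but the median log2 difference from liver, -0.44, turned to 0.79 with scaling by count total. Their summed level was 65827 to 74261 FPKM in ovary, against 33971 to 35765 in brain, 57624 to 72635 in pituitary and 35322 to 42607 in liver. Among the enriched members were less known copies, such as LOC103382555, annotated as 40S ribosomal protein S16, at 57.8 ± 5.94 FPKM in ovary and at most 4.75 FPKM in any other pool. Abundant ribosomal protein genes were also enriched. Examples chosen after their values were seen are rpsa and rps20, which averaged 5074 and 4756 FPKM in ovary.

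Follicle cell genes were enriched about as often as genes in general, and several were close to the levels of another organ. Of 30 listed, 22 were tested, 8 (36.4%) were enriched and 2 (9.09%) were lower, beside 32.6% and 25.2% of all genes tested. With scaling by count total, or without ovary pool 1, 5 of the 22 were enriched, beside 5047 and 5460 of all 18187 genes tested. foxl2, the transcription factor that keeps granulosa cells female, had 8.95, 4.93 and 7.45 FPKM in ovary, against 5.98, 5.72 and 6.59 in brain, 1.17, 0.59 and 1.2 in pituitary and 0.24, 0.08 and 0 in liver. Ovary and brain pools overlapped, and ovary pool 2 lay below all 3 brain pools. The fitted foxl2 difference was 2.25-fold against brain (edgeR adjusted p = 0.00314) and 11.6-fold against pituitary, and the call against brain was lost with scaling by count total, with limma and without ovary pool 1. fshr carries the symbol of the follitropin receptor but is annotated as a lutropin-choriogonadotropic hormone receptor-like gene. It had 1.35, 0.81 and 1.16 FPKM in ovary, against 0.98, 1.26 and 0.96 in brain. The ovary and brain pools of fshr overlapped, and its call was lost in the same settings.

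amh, the hormone of the supporting cells, had 2.8, 1.6 and 2.18 FPKM in ovary, against 0.7, 0.78 and 0.81 in brain, 0.28, 0.12 and 0.22 in pituitary and 0.1, 0.03 and 0.09 in liver, a smallest fold of 5.55, against brain. wt1, which marks supporting cell precursors, averaged 1.89 ± 0.52 FPKM in ovary and at most 0.36 FPKM in any other pool. The 2 kit ligand genes differed in direction: LOC103382827, kit ligand-like, averaged 5.89 ± 0.675 FPKM in ovary, against 1.89 ± 0.209 in brain, 1.52 ± 0.217 in pituitary and 0.0967 ± 0.1 in liver, whereas kitlg averaged 0.193 ± 0.0569 FPKM in ovary, against 13.7 ± 0.724 in brain, 4.55 ± 0.453 in pituitary and 2.51 ± 1.26 in liver. sox9, a factor of testis and glia, was called lower in ovary than in each organ, at 0.387 ± 0.16 FPKM in ovary.

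Most steroid genes named here were at low levels in ovary. Of 26 tested, 8 (30.8%) were enriched and 2 (7.69%) lower, beside 32.6% and 25.2% of all genes tested. LOC103378914, the aromatase-like gene on chromosome 5 that turns androgen into estrogen, had 7.4, 1.67 and 4.05 FPKM in ovary, against 0.04, 0.1 and 0.17 in brain and at most 0.03 FPKM in pituitary and liver. The 3 ovary pools differed among themselves more than most genes did, with pool 1 the highest, and the fold against brain was 77.4, or 41.8 without ovary pool 1. Testis averaged 7.07 ± 0.909 FPKM. The other aromatase gene, LOC103380488 on chromosome 6, had the opposite pattern, with 0.02, 0.04 and 0 FPKM in ovary, 8.75, 11 and 9.61 in brain and 7.94, 13.6 and 15.4 in pituitary.

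Further enzymes were enriched at low or moderate levels. cyp17a1, which makes androgen precursors, had 3.81, 4.14 and 3.15 FPKM in ovary, against 1.27, 0.95 and 0.73 in brain, 0.24, 0.46 and 0.07 in pituitary and 0.06, 0.06 and 0.03 in liver. cyp11c1, annotated as cytochrome P450 11B-like, averaged 4.68 ± 1.53 FPKM and the electron carrier fdx1 109 ± 6.76 FPKM in ovary, against 0.167 ± 0.0764 and 12.5 ± 1.4 FPKM in brain. star2, a carrier of cholesterol into mitochondria, was at 0.15, 0.1 and 0.14 FPKM in ovary, below brain and pituitary. esr2a, an estrogen receptor beta, was lower in ovary than in each organ, at 1.47 ± 0.386 FPKM in ovary, against 6.7 ± 0.56 in brain, 28.4 ± 0.376 in pituitary and 16.1 ± 2.12 in liver.

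The genes with the largest smallest fitted difference at 10 FPKM or more in ovary included several not known as egg genes by name. Fitted values also ranked genes with no count in an organ, so the place of such genes is not set by their bounds. LOC103387023, NK1 transcription factor-related protein 2-like, had 14.3, 14.2 and 14.9 FPKM in ovary and no count in any of the 9 other pools, so its level was at least 196-fold above brain, at least 173-fold above pituitary and at least 60.4-fold above liver. LOC103381173, G-protein coupled receptor 64-like, likewise had 12.4, 9.75 and 13.2 FPKM in ovary and no count elsewhere. LOC103381286, a zinc metalloproteinase of the astacin-like type nas-14, had 148, 182 and 157 FPKM in ovary and at most 0.62 FPKM in any other pool. LOC103393369, a fizzy-related protein homolog, an activator of the complex that degrades cyclins, had 103, 82.4 and 102 FPKM in ovary, against at most 0.34 FPKM elsewhere. LOC103378383, annotated as steroid hormone receptor ERR1-like, had 31.6, 16.5 and 29.4 FPKM in ovary and no count in brain or liver.

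Others of this group reached high levels. LOC103393015, labelled cell wall adhesin EAP1-like, had 1304, 1505 and 1979 FPKM in ovary, against 1.11, 0.59 and 1.6 in brain, 1.17, 0.98 and 8.45 in pituitary and 1.51, 0.89 and 0.99 in liver. LOC103379065, histone H2B.3-like, had 509.9, 653 and 381 FPKM and LOC103392807, otopetrin-2-like, 416, 450 and 612 FPKM in ovary, both under 4 FPKM in every other pool. cth1, a zinc finger protein of the kind that destabilises AU-rich mRNAs, had 307, 208 and 356 FPKM in ovary and at most 1.35 FPKM elsewhere. vrtn had 56.3, 55.7 and 61 FPKM and LOC103382489, chymotrypsin B-like, 128, 125 and 121 FPKM in ovary, each under 1 FPKM in all other pools.

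The most abundant ovary-enriched transcripts at least 4-fold above each organ were led by LOC103382188, nucleoside diphosphate kinase-like, with 9996, 6748 and 8198 FPKM in ovary, against 566, 496 and 534 in brain, 1714, 1235 and 1462 in pituitary and 382, 462 and 409 in liver. It was expressed in all organs, at 30-fold above brain, 9.04-fold above pituitary and 8.52-fold above liver. The next were far lower in every pool outside the ovary. LOC103392072, NAD(P)H dehydrogenase [quinone] 1-like, had 7705, 6817 and 7535 FPKM in ovary, against 3.14, 4.74 and 5.64 in brain, 3.86, 3.64 and 32.1 in pituitary and 13.9, 4.24 and 5.42 in liver. fabp4b, a fatty acid-binding protein, had 7241, 5956 and 7627 FPKM in ovary, against 5.08, 4.91 and 4.65 in brain, 4.43, 3.38 and 28.2 in pituitary and 13.7, 4.58 and 4.55 in liver. In both, pituitary pool 3 and liver pool 1 were the highest pools outside the ovary, and without these pools the smallest fold was 678 for LOC103392072 and 676 for fabp4b, against 387 and 377 with them.

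Structural and secreted products filled the rest of the list. LOC103379620, keratin type I cytoskeletal 9-like, averaged 6833 ± 877 FPKM in ovary, LOC103390914, extensin-2-like, 5861 ± 1622 FPKM and LOC103395009, a claudin-like protein of tight junctions, 5723 ± 1344 FPKM. LOC103378060, late histone H2A.2.2-like, averaged 5150.5 ± 256 FPKM, LOC103394674, proteoglycan 4-like, 5102 ± 708 FPKM and LOC103384726, a tubulin alpha-1C chain-like gene, 4388 ± 714 FPKM in ovary. Of these 6, LOC103384726 was the best expressed outside the ovary, at 61.5 ± 3.97 FPKM in brain. Histone and tubulin genes belong to families of near-identical copies between which reads may be split.

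At the other end stood genes lower in ovary than in each organ. rtn1, an endoplasmic reticulum protein of neurons and endocrine cells, had 1.12, 1.11 and 0.72 FPKM in ovary, against 763, 759 and 762 in brain, 396, 319 and 316 in pituitary and 46.5, 61.2 and 56.2 in liver, and was 422-fold lower than brain, 202-fold lower than pituitary and 89.1-fold lower than liver (edgeR adjusted p = 8.31e-13). nkx2.2a, a homeobox factor of the brain, was at 0 in all ovary pools, against 12.7, 13.3 and 9.29 FPKM in brain, 63.2, 31 and 35.2 in pituitary and 0.3, 0.12 and 0.39 in liver. amigo3 and rprml were also at 0 in all ovary pools and averaged 5.58 ± 0.176 and 14.8 ± 0.586 FPKM in brain. nim1k, a Z-linked kinase, had 0.03, 0.1 and 0.14 FPKM in ovary and 44.5, 47.4 and 49.5 FPKM in pituitary. The remaining leaders, fbln1 (fibulin-1-like), tmeff1 and LOC103383454 (tweety homolog 3-like), averaged 0.0433 ± 0.0404, 0.153 ± 0.138 and 0.0633 ± 0.0379 FPKM in ovary, against 23.1 ± 3.98, 18.4 ± 2.29 and 42.1 ± 1.11 FPKM in brain.

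Blood cells stood out among the markers of other cell types. Of 16 tested blood and immune markers, 13 (81.2%) were lower in ovary than in each organ, set beside 25.2% of all genes, and 1 was enriched. Their summed level was 89.8 to 116.5 FPKM in ovary, against 1376 to 1833 in brain, 354 to 513 in pituitary and 441 to 913 in liver. LOC103382312, a hemoglobin beta chain, had 16.5, 13.9 and 15.5 FPKM in ovary, against 582, 510.2 and 672 in brain, 174, 129.5 and 192 in pituitary and 358, 201 and 174 in liver. ptprc, the pan-leukocyte phosphatase CD45, had 1.44, 0.68 and 1 FPKM in ovary, against 73.8, 72.4 and 66.3 in brain, 10.5, 15.2 and 14.6 in pituitary and 7.15, 6.25 and 7.5 in liver. All ovary pools lay below all others for both. The enriched member was lck, a kinase of T cells, at 4.27, 4.33 and 7.41 FPKM in ovary, against 5.67, 4.12 and 4.3 in brain, with overlapping pools and a fold of 1.98 that was lost with scaling by count total. How far the share of blood in each organ sets these levels was not tested.

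Stroma and vessel markers were lower in 9 of 19 cases (47.4%) and enriched in 3 (15.8%), beside 25.2% and 32.6% of all genes tested. The vessel receptor kdr had 0.6, 0.6 and 0.6 FPKM in ovary, against 34, 36.2 and 39.2 in brain, 8.22, 10.6 and 9.07 in pituitary and 5.77, 7.14 and 5.95 in liver. pecam1b, an endothelial adhesion molecule by name, went the other way, with 87, 78.9 and 91.7 FPKM in ovary, against 8.11, 8.17 and 5.6 in brain, 2.2, 2.28 and 2.44 in pituitary and 0.96, 1.05 and 1.09 in liver, while its paralog pecam1a was at 0.15, 0.11 and 0.09 FPKM in ovary and lower than in each organ. LOC103396029, collagen III alpha 1-like, had 37.4, 23.1 and 30.4 FPKM in ovary and 1.65, 0.65 and 1.33 FPKM in liver, and was 10.6-fold above liver. col1a1a, a fibrillar collagen, was only 1.41-fold above liver (edgeR adjusted p = 0.0364) and lost the call with DESeq2 and without ovary pool 1, liver pool 2 or liver pool 3.

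Among 25 neuron and glia markers 9 were lower and 1 was enriched, beside 25.2% and 32.6% of all genes tested. When scaled by count total, 4 of the 25 were lower, beside 3557 of all 18187 genes tested. neff2, a neurofilament light chain, had 0.44, 0.27 and 0.54 FPKM in ovary and 0.29, 0.29 and 0.49 FPKM in liver, overlapping values whose direction turned with that scaling. The enriched one was plp1a, a myelin proteolipid gene, at 39.5, 33.5 and 30.4 FPKM in ovary, against 21, 17 and 24.8 in brain, 0, 0.67 and 0.19 in pituitary and 0.14, 0.14 and 0 in liver. Its copy plp1b averaged 0.963 ± 0.353 FPKM in ovary and 1024 ± 147 FPKM in brain. No pituitary hormone marker and no hepatocyte marker was enriched. Of 12 pituitary markers 1 was lower than in each organ, a pro-opiomelanocortin-like gene, LOC103389827, whose ovary pools overlapped with liver. That call was lost without ovary pool 2, brain pool 1 or 3, or any 1 pituitary pool. Of 28 hepatocyte markers, none was lower than in each organ, 28 were lower than in liver, and 1 was lower than in each organ without ovary pool 2.

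**Figure D4:**
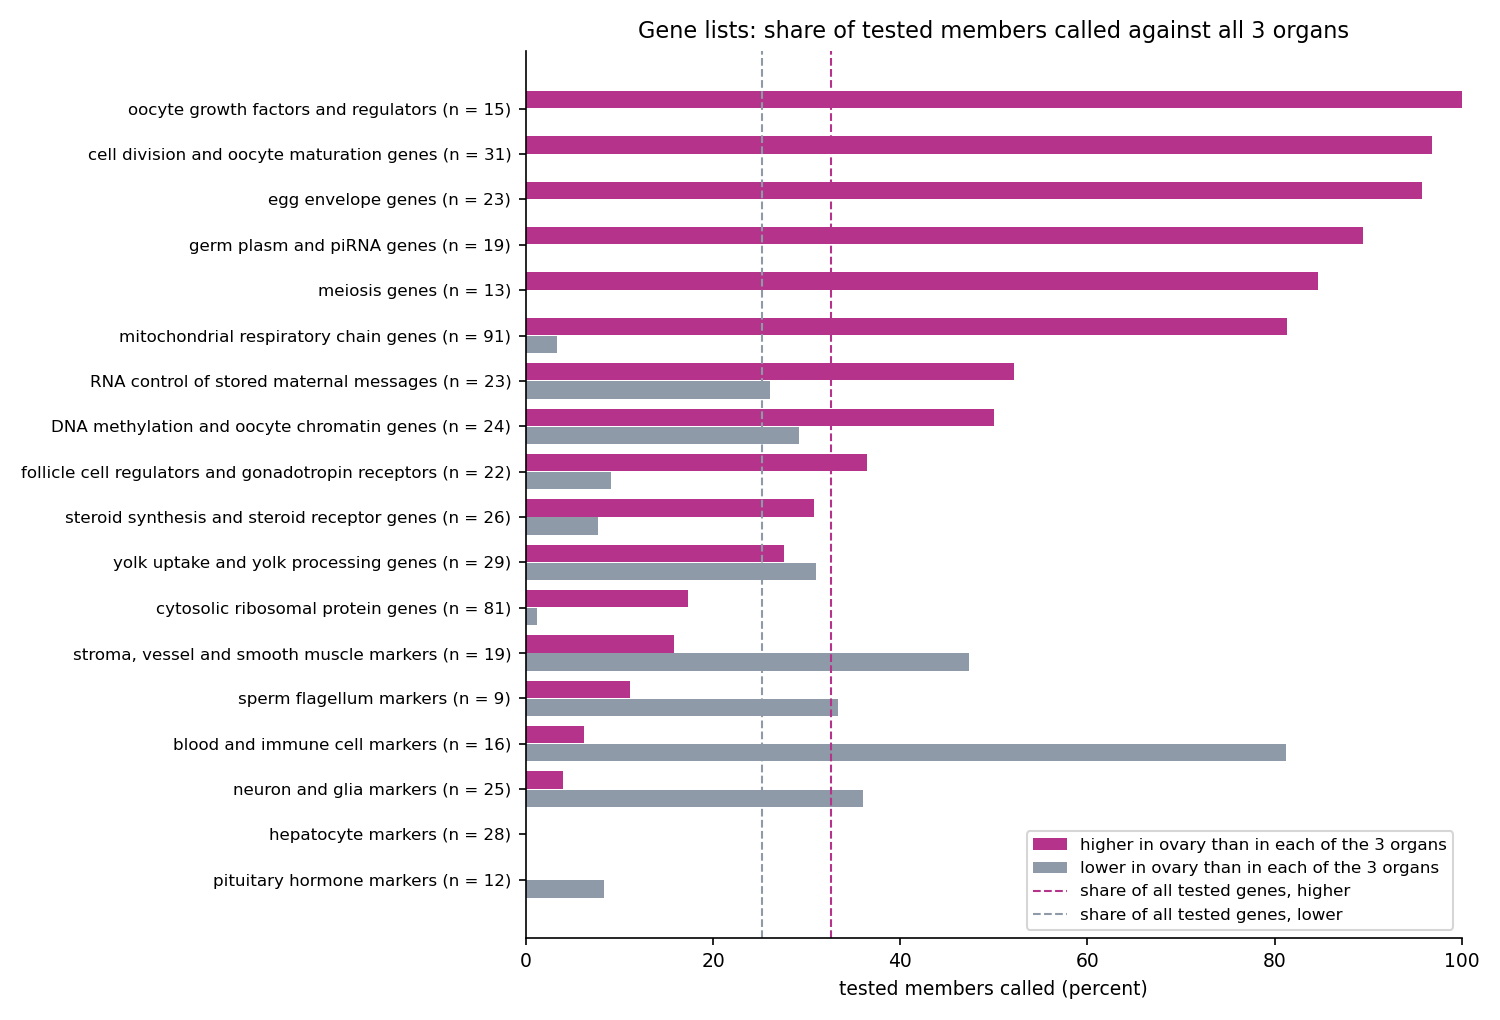
Share of tested members (percent, number tested in brackets) called higher or lower in ovary than in each of the 3 organs, for 18 gene lists; dashed lines mark the shares over all 18187 tested genes, 32.6% and 25.2%. Oocyte regulators, cell division, egg envelope, germ plasm, meiosis and respiratory chain genes reach 81.3% or more on the higher side. Blood and immune markers reach 81.2% on the lower side. Of the tested members, 8 oocyte regulators, 11 egg envelope, 13 germ plasm, 9 meiosis and 7 cell division genes passed the filter only through ovary. For these the filter favoured a higher level in ovary, so the shares of their lists are a description.

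The 3 testis pools were not used to choose the enriched genes. The ovary and organ values set against testis below were used for it, so these comparisons are a description. Of the 5921 enriched genes, 4478 were also higher in testis than in each of the female organ means, and 1732 were at or above their ovary level in testis, 216 of them by 4 times or more. In 1583 the ovary mean was at least 4 times the testis mean, and in 505 the testis mean was under 1 FPKM. Over all 18187 tested genes, 7530 were higher in testis than in each organ mean, 11605 were at or above their ovary level, 2135 were at least 4 times higher in ovary and 3240 were under 1 FPKM in testis. These are ratios of FPKM means with no test.

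Of the enriched oocyte regulators 12 of 15, and of the enriched egg envelope genes 19 of 22, were at least 4 times higher in ovary than in testis, against 1 of 17 germ plasm genes. The 3 other egg envelope genes, LOC103383792, LOC103386730 and LOC103391061, averaged 28.5, 27.8 and 4.79 FPKM in ovary and 23.9, 20.6 and 4.23 FPKM in testis. gdf9 averaged 158 ± 11.8 FPKM in ovary and 0.313 ± 0.0751 FPKM in testis, zpcx 3342 ± 373 FPKM in ovary and 5.5 ± 2.81 FPKM in testis, and figla 4.18 ± 1.47 FPKM in ovary and 0 in testis. Genes at high level in ovary with under 1 FPKM in testis included LOC103377641 (ZP3-like), LOC103382285 (basic salivary proline-rich protein 1-like), LOC103383647 (perilipin-2-like, a lipid droplet coat protein), LOC103382459 (trypsin-2-like), birc5b, a survivin that blocks apoptosis, and acsl5, which activates long-chain fatty acids. They averaged 1006 ± 289, 868 ± 59.6, 757 ± 97.3, 742 ± 97, 738 ± 206 and 662 ± 30.5 FPKM in ovary. ddx4, by contrast, averaged 27.9 ± 1.93 FPKM in ovary and 249 ± 24.3 FPKM in testis, dazl 22.9 ± 7.28 FPKM in ovary and 677 ± 39.9 FPKM in testis, and nobox 11.9 ± 0.835 FPKM in ovary and 16 ± 2.12 FPKM in testis.

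The enriched genes with the highest ratio of testis to ovary were ythdc2, an RNA helicase needed for meiosis in mouse, at 5.18 ± 0.818 FPKM in ovary and 554 ± 61.5 FPKM in testis, and LOC103380658, Wiskott-Aldrich syndrome protein-like, at 1.04 ± 0.374 FPKM in ovary, where its pools overlapped with brain, and 314 ± 92.2 FPKM in testis. They were followed by LOC103378288 (heat shock cognate 70-like), tdrd6a, zte38 (a HORMA domain gene) and top2a, at 111 ± 33.6, 121 ± 17.3, 229.5 ± 9.29 and 152 ± 12.7 FPKM in testis. sycp3, not enriched in ovary, averaged 317 ± 47 FPKM in testis. spag6, in contrast, is a sperm flagellum gene by name. It averaged 22.6 ± 4.83 FPKM in ovary, 1.85 ± 0.479 in brain and 0.0533 ± 0.0611 FPKM in testis. Of 9 tested flagellum markers, 3 (33.3%) were lower in ovary than in each organ, beside 25.2% of all genes tested. With scaling by count total 2 were lower, beside 3557 of all 18187 genes tested, and the direction of tekt4 turned.

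A level far above testis did not by itself make a gene one of the ovary. Of 1938 genes at 1 FPKM or more in ovary and at least 4 times their testis mean, 1583 were ovary-enriched and 355 were not, and 218 of those were called lower than at least 1 organ. Chosen after their values were seen, 3 examples show the kinds. glul, glutamine synthetase, had 356, 393 and 340.3 FPKM in ovary, 1050.2, 1042 and 1182 in brain and 57.9, 53.2 and 58 in testis. LOC103397139, a W-linked gene annotated as 60S ribosomal protein L6-like, had 565, 486 and 585 FPKM in ovary, 531, 503 and 530.4 in pituitary, 471, 516 and 438 in liver and 0.91, 1.21 and 1.04 in testis. tfa, serotransferrin-like, had 20.5, 939.6 and 26.4 FPKM in ovary, where only pool 2 was far above the testis pools at 51.1, 34.6 and 53.9 FPKM, and 27450.1, 26766 and 32951 FPKM in liver. Without ovary pool 2 the log2 difference of tfa from liver was -11.50. Ovary pools overlapped with pools of another organ in all 3 genes.

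**Figure D5:**
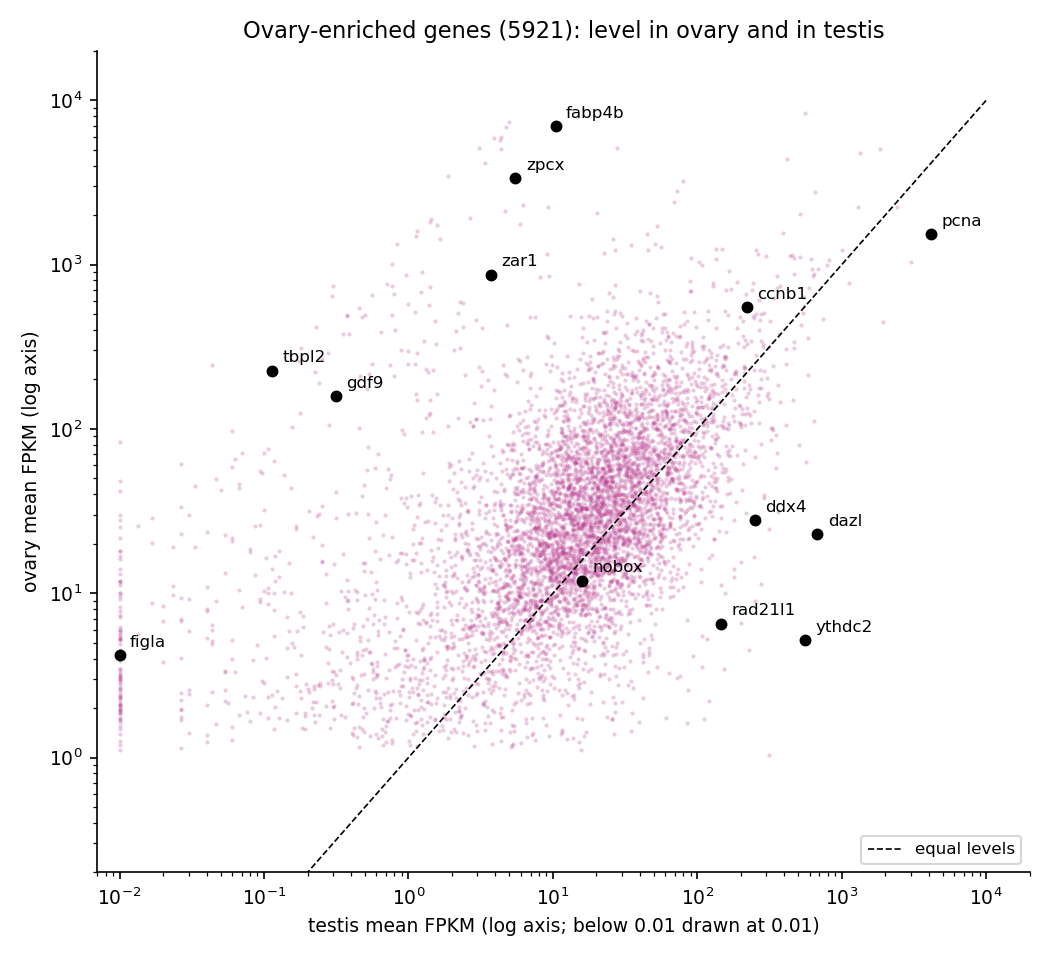
Mean FPKM in ovary (vertical, log axis) and in testis (horizontal, log axis, below 0.01 drawn at 0.01) of the 5921 ovary-enriched genes, with 13 genes marked; the dashed line is equality. gdf9, tbpl2, figla and zpcx lie far above the line, dazl, ddx4, nobox, rad21l1 and ythdc2 below it, and 1732 genes lie at or below it.

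The share of enriched genes was described by chromosome, with no test. On autosomes 33.0% of tested genes were enriched, on Z 29.8% and on W 23.0% (43 of 187). Genes lower in ovary than in each organ made up 24.9% on autosomes, 28.7% on Z and 41.7% (78 genes) on W. Of the 43 enriched W genes, 38 were under 1 FPKM in testis, as were 158 of all 187 tested W genes. Besides figla and LOC103397210, W-linked genes at high level in ovary, chosen after their values were seen, were LOC103397138 (dynein light chain 2-like) at 639 ± 54 FPKM in ovary and 45 ± 2.73 FPKM in brain, and a pair annotated as ATP synthase alpha subunit, LOC103396980 at 258 ± 11.7 and LOC103397288 at 244 ± 7.39 FPKM in ovary, against 70 ± 2.2 and 51.2 ± 0.895 FPKM in brain. LOC103397052, intracellular hyaluronan-binding protein 4-like, averaged 82.8 ± 10 FPKM in ovary and at most 0.2 FPKM in an organ. On the lower side, the W-linked LOC103397059, TET3-like, averaged 0.127 ± 0.0289 FPKM in ovary, against 5.52 ± 0.169 in brain, 6.4 ± 1.61 in pituitary and 0.783 ± 0.0404 in liver.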

How the data were processed

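Organs were pooled from 5 fish per library, and 12 female libraries (3 each of ovary, brain, pituitary and liver) of 24 were compared. The authors deposited FPKM and estimated counts per gene, per the file headers. TopHat2 2.0.3.12 and Bowtie2 are named in the submitters' processing notes; the counting tool is not given in the sources used here. The members and gene lists were chosen with earlier results of these data known.

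Counts were rounded and tested with edgeR 4.0.16 in R 4.3.3 (quasi-likelihood, TMM, robust) over the 18187 of 22773 entries that reached 1 FPKM in 3 or more female libraries. P-values were Benjamini-Hochberg adjusted over all genes, with a threshold of 0.05. Each contrast set ovary against 1 organ. DESeq2 1.42.0 and limma 3.58.1 were alternatives, and the test was checked on simulated data. Of the entries, 20373 carried an NCBI gene ID and 19502 of these matched the RefSeq table. A fold against an organ with no count is a bound at 3 counts over the organ. The SE of a log2 difference comes from the fit and includes the spread between pools. The bounds cover counting error only.

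Genes were named by rule. Taken were the 12 enriched genes with the largest smallest fitted difference at 10 FPKM or more. Also taken were the 12 most abundant at least 4-fold enriched and 8 ovary-low genes with the largest fall. Key genes and up to 4 enriched members of each list were added, with 6 genes each at the extremes of the testis comparison.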

Additional observations from a re-analysis of the deposited data

How the results depend on the processing

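The counts of calls kept within 1.5 times of the reported ones in all 125 alternatives run over 5 results. Ovary-enriched genes numbered between 4441 (test against a 2-fold difference) and 6461 (no filter), and ovary-low genes between 3166 (limma, pseudocount 1) and 5074 (DESeq2). Leaving out 1 library gave 5460 to 5928 enriched and 4445 to 4893 low genes, 15696 to 16120 calls against brain, 15073 to 15540 against pituitary and 14323 to 14689 against liver. With the replicate number as a block there were 5926 enriched and 4579 low genes. Deviations from the organ mean correlated at -0.099 to 0.090 between same-numbered pools of ovary and another organ. For differently numbered pools of ovary and another organ the range was -0.169 to 0.181. Among brain, pituitary and liver it was 0.0558 to 0.246 for same-numbered and -0.207 to 0.117 for differently numbered pools. Whether same-numbered pools came from the same fish was not tested. Some named genes were not tested in every alternative, as with the filter at 5 FPKM. Of 184 named genes called against all 3 organs, 151 kept their call in every alternative that tested them and 33 did not. Of these, 4 turned in direction, and their ovary pools did not all lie below every other pool in FPKM. The largest log2 difference, with scaling by count total, limma at pseudocount 1 and limma at pseudocount 0.1, was 0.23, 0.0613 and 0.17 for neff2, 0.0746, 0.0125 and 0.0557 for nefma, 0.38, 0.14 and 0.31 for tekt4, and 0.34, 0.32 and 0.34 for rab7a. The cause was not tested. Leaving out a single library moved the fold against the nearest organ by over 1.5 times in 50 of the 184, and liver pool 1 did so in 25. Folds against the other organs are not in these counts and moved in further genes, such as tbpl2 against brain. Depth limits genes with few counts outside the ovary, and a fold against an organ with no count is a bound.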

Other observations

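Over the 124 KEGG pathways with at least 20 tested genes, described by counts with no test, ovary-enriched genes made up the largest shares in DNA replication (34 of 39), RNA polymerase (27 of 31), basal transcription factors (30 of 37), mismatch repair (20 of 25) and GPI-anchor biosynthesis (16 of 20). Ribosome biogenesis (56 of 73), the proteasome (36 of 47) and the spliceosome (98 of 135) also lay above the 32.6% of all tested genes. Wider sets for division and maturation went both ways. Enriched and lower shares were 62.8% and 19.6% in cell cycle and 39.0% and 30.5% in oocyte meiosis. In progesterone-mediated oocyte maturation they were 31.7% and 38.6%, beside 32.6% and 25.2% of all genes tested. At the low end were the intestinal IgA network (1 of 25), steroid biosynthesis (2 of 23) and starch and sucrose metabolism (4 of 44). Next came neuroactive ligand-receptor interaction (30 of 299), ECM-receptor interaction (9 of 87) and dorso-ventral axis formation (3 of 29).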
